A study of Mus musculus with 2 samples.

Results

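The 9 genes described here make, store and break down glycogen in skeletal muscle, or steer the enzymes that do. They are Gyg, Gys1, Gbe1, Pygm, Phka1, Phkb, Phkg1, Ppp1r3a and Ppp1r3c. They were listed by name, and all 9 of 9 were found in the gene tables and in both kinds of transcript table, among 55536 annotated genes. The samples are total RNA of the gastrocnemius, a calf muscle, taken from male B6CASTF1/J mice, a first-generation cross of C57BL/6J with CAST/EiJ. The label text gives an age of 18 to 20 months, while the label field for age reads unknown. All samples form 1 group with 2 libraries, called biological replicates, with no treatment or control, so the comparisons below are between libraries, between genes and between quantifications. The labels number the males differently but give both libraries the same donor record, so the spread between them may be technical or between animals. Replicate 2 held 44919441 expected counts in all and replicate 1 held 40795740. Each library started from 300 ng of RNA with added ERCC spike-ins, which are synthetic control RNAs. The libraries stand apart in fibre type: slow-type sarcomere genes summed to 3446 TPM in replicate 2 and 369 TPM in replicate 1, while fast-type genes dominated both.

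Muscle stores glucose as glycogen and burns it during contraction. Glycogenin (Gyg) primes each particle, glycogen synthase (Gys1) lengthens its chains and the branching enzyme (Gbe1) adds branch points. Glycogen phosphorylase (Pygm) releases glucose units again, after phosphorylase kinase has activated it in answer to calcium or adrenaline. That kinase has regulatory alpha and beta subunits (Phka1, Phkb), a catalytic gamma subunit (Phkg1) and calmodulin as its delta subunit. Ppp1r3a and Ppp1r3c bring protein phosphatase 1 to glycogen, where it turns synthase on and phosphorylase off.

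The breakdown enzyme Pygm stood far above every other gene of the set. In TPM, a level per transcript length scaled to a fixed library total, Pygm had 3029 in replicate 2 and 4425 in replicate 1 (3727 ± 987 TPM, SD, n = 2). It ranked 25 among protein-coding genes by mean TPM, with the fast-muscle alpha-actinin Actn3 (3933 TPM) next above and the muscle enolase Eno3 (2761 TPM) next below. Together the 9 genes held 4188 TPM in replicate 2 and 5976 TPM in replicate 1, and Pygm alone made up 72.3% and 74.0% of that. The set took 1.21% of nuclear protein-coding counts in replicate 2 (95% exact Clopper-Pearson interval 1.21 to 1.22%) and 1.62% in replicate 1 (1.62 to 1.63%). Such intervals cover counting error only.

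The other 8 genes spanned a range from 20.3 to 352 TPM. Ppp1r3c averaged 352 ± 205 TPM, Phka1 249 ± 57.0 TPM and Gyg 191 ± 13.3 TPM (SD, n = 2 each). Phkb averaged 182 ± 27.4 TPM, Phkg1 146 ± 29.5 TPM and Gys1 117 ± 29.4 TPM. Ppp1r3a averaged 97.9 ± 14.7 TPM, and Gbe1 was lowest at 20.3 ± 13.2 TPM. Pygm was highest and Gbe1 lowest in both libraries. The order between them changed with the library: Phka1 (209 TPM) and Ppp1r3c (208 TPM) were level in replicate 2, while Ppp1r3c was higher in replicate 1 and, in the second quantification, in both (261 against 247 TPM in replicate 2). Gys1 stood above Phkg1 and Ppp1r3a in replicate 2 and below both in replicate 1. The second quantification took reads and not an alignment as its input, per the list deposited with each sample. It gave each gene a higher TPM in each library, for example 3599 TPM in replicate 2 and 5887 TPM in replicate 1 for Pygm. Genes outside the set could be higher too, such as Gaa (97.4 and 109 TPM, beside 73.4 and 76.3 TPM in the gene table). Not every gene was, as Ppp1cb had 208 TPM in replicate 2, beside 213 TPM in the gene table.

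**Figure D1:**
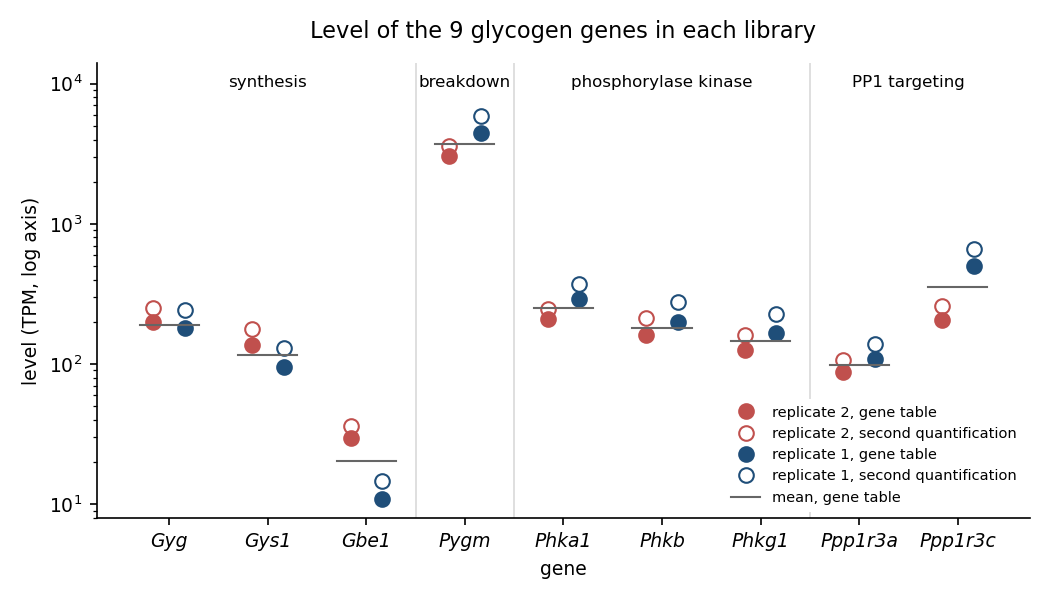
Level of each gene in TPM (log axis) in replicate 2 (red, left) and replicate 1 (blue, right), from the gene table (filled) and the second quantification (open), with the mean of the gene table as a line. Pygm lies above every other gene and Gbe1 below, at means of 3727 and 20.3 TPM.

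The muscle isoform took nearly all of the level of each enzyme family. Pygm held 99.9% of the TPM of Pygm, Pygb (brain phosphorylase) and Pygl (liver phosphorylase) in replicate 2 and in replicate 1, where Pygb had 2.31 and 1.82 TPM and Pygl 1.03 and 0.67 TPM. Gys1 held 99.9% and 99.8% of the TPM of Gys1 and Gys2, the liver synthase, which had 8 and 6 counts. Phka1 held 99.2% and 99.3% of the TPM of Phka1 and Phka2, the liver alpha subunit. Phkg1 held 96.6% and 97.9% of that of Phkg1 and Phkg2, the gamma subunit of liver and testis, which had 4.39 and 3.50 TPM. Among the 7 glycogen-targeting subunits Ppp1r3a to Ppp1r3g, Ppp1r3c held 69.2% in replicate 2 and 81.4% in replicate 1, and Ppp1r3a 29.1% and 17.7%. Each of the other 5 stayed under 2 TPM in both libraries in the gene table, and Ppp1r3g had 0 and 1 counts. In the second quantification Ppp1r3f was the highest of these 5, at 3.54 TPM in replicate 2 and 2.67 TPM in replicate 1.

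Gyg, Gys1 and Gbe1 had log2 ratios above 0 when replicate 2 was set against replicate 1, Gyg by only 0.090. Pygm, the kinase subunits, Ppp1r3a and Ppp1r3c lay below 0, and 2 genes were called. Gbe1 was higher and Ppp1r3c lower in replicate 2. A call needed a difference of 2-fold or more and an adjusted p (Benjamini-Hochberg) below 0.05 in a 2-sided exact binomial test of counts with TMM scaling, which evens out library depth and composition. By this rule 2 of 9 were called, 1 in each direction, beside 6.05% of all 14965 genes tested (4.40% higher and 1.65% lower in replicate 2). The test holds counting error only and compares these libraries, not conditions. At these depths all 9 genes had an adjusted p below 0.05, as did 34.9% of all genes tested, so the fold sets the call. The same 2 genes were called with DESeq2 size factors (5.99% of all genes tested), total counts (6.23%), spike-in totals (8.00%), no filter (4.29%), a mean count of at least 100 (3.56%) and the second quantification (5.95%). With edgeR's exact test, which called 1.82% of all genes, 0 of 9 were called, and 2 had an unadjusted p below 0.05. The genes' median log2 ratio was -0.42, beside 0.0054 for all genes tested, with 3 above 0 and 6 below. The signs of all 9 were the same with DESeq2 size factors, total counts, spike-in totals and the second quantification. Spike-in scaling moved every gene up by 0.22 on the log2 scale.

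**Figure D2:**
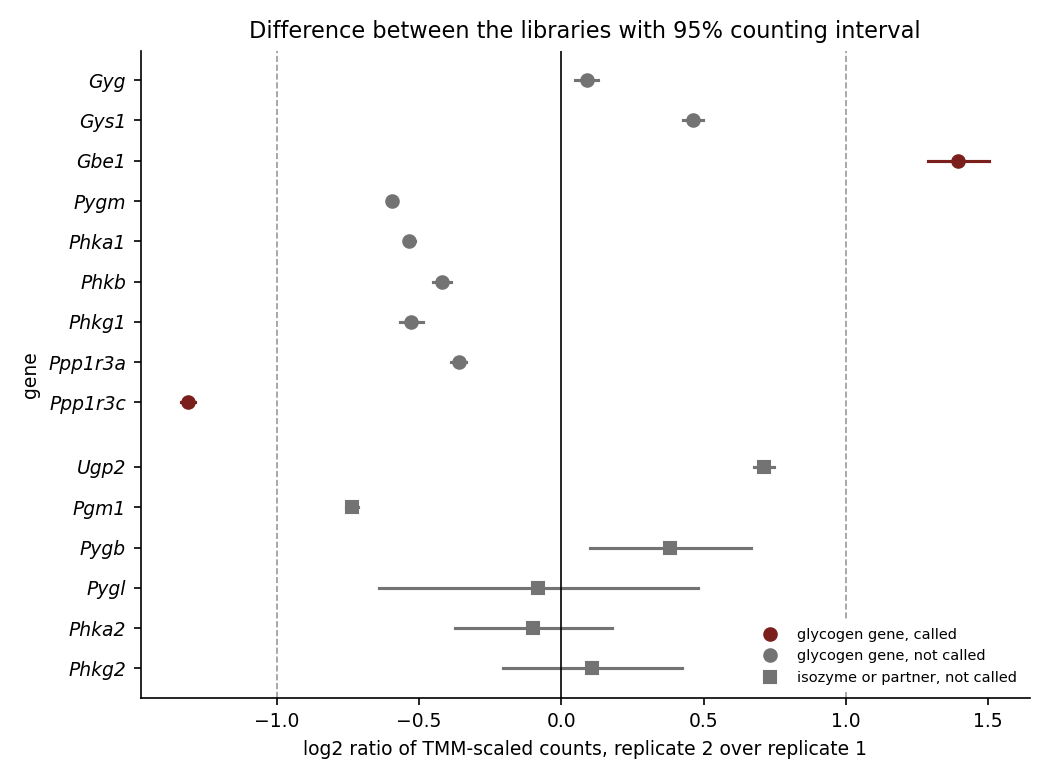
Log2 ratio of TMM-scaled counts, replicate 2 over replicate 1 (horizontal axis), for the 9 glycogen genes (circles) and 6 isozymes or partners (squares), with 95% exact counting intervals as lines and 2-fold as dashed lines. Gbe1 at 1.40 and Ppp1r3c at -1.31 lie past the dashed lines.

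The synthesis genes differed by unequal amounts. Gyg (ENSMUSG00000019528.18, mm10 chromosome 3, 20122084 to 20155317) had 199.95 TPM in replicate 2 and 181 TPM in replicate 1, a 1.06-fold difference in scaled counts with a 95% counting interval from 1.035 to 1.09. Gys1 (chromosome 7, 45434844 to 45456619) had 137 and 95.7 TPM, 1.38-fold (1.35 to 1.41). Both stayed under 2-fold. Gys1 shares 310 exonic bases with Ruvbl2 on the opposite strand, and whether counting used strand is not stated. Ruvbl2 had 661 counts in replicate 2 and 548 in replicate 1, beside 16587 and 10598 for Gys1.

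Gbe1, whose loss causes the branching-enzyme form of glycogen storage disease, had the highest ratio of the set. It lies on chromosome 16 (70313949 to 70569716, plus strand) and had 29.6 TPM in replicate 2 and 10.96 TPM in replicate 1, from 2781 and 931 counts. Scaled counts were 2.63-fold higher in replicate 2 (95% counting interval 2.44 to 2.84, adjusted p = 6.76e-162 by the exact binomial test). The second quantification gave 36.4 and 14.6 TPM. The leading transcript depended on the table and the library. In the first transcript table Gbe1-203 led in replicate 2 with 38.8% of the gene's TPM and Gbe1-206 in replicate 1 with 41.6%, while in the second table Gbe1-203 led in both. Both transcripts carry 2106 coding bases.

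Ppp1r3c, also known as protein targeting to glycogen, had the lowest ratio of the set. It lies on chromosome 19 (36731731 to 36736653, minus strand) and had 208 TPM in replicate 2 and 497 TPM in replicate 1, from 18860 and 41208 counts. Scaled counts were 2.48-fold lower in replicate 2 (95% counting interval 2.44 to 2.52), and the exact binomial p was too small for the software to represent. The second quantification gave 261 and 660 TPM. Ppp1r3a, the subunit that also anchors the phosphatase at the sarcoplasmic reticulum of striated muscle (chromosome 6, 14713977 to 14755274), had 87.5 and 108 TPM and a scaled fold of 0.78 (0.76 to 0.79), under the 2-fold line. The ratio of Ppp1r3a to Ppp1r3c within a library, which no scaling between libraries can change, was 0.42 in replicate 2 and 0.22 in replicate 1.

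The upstream bases of the 2 called genes are shown because those genes differed in opposite directions. They come from RefSeq on build GRCm38.p6, read 5′ to 3′ on the gene's strand, and end where the first annotated transcript begins (chr16:70313699-70313948, plus strand, for Gbe1, and chr19:36736654-36736854, minus strand, for Ppp1r3c). Capitals mark E-boxes (CANNTG) in both and, in Ppp1r3c, a CCAAT box on the opposite strand, which reads ATTGG here.
Gbe1: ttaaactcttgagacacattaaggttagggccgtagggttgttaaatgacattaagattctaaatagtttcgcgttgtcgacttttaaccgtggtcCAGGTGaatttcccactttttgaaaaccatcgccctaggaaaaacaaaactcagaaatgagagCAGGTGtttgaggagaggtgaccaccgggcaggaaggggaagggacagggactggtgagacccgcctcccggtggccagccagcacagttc
Ppp1r3c: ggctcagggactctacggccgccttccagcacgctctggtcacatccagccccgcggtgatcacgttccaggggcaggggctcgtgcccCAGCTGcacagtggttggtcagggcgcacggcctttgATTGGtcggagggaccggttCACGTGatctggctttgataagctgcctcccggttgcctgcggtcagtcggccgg

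Each stretch held 2 E-boxes, and the letters between their fixed ends differed between the genes. Over promoter windows of 300 bases on both strands, an E-box was found for 9 of 9 genes and in 72.3% of all 32851 windows, so it does not set these genes apart. CCAAT was found for 4 of the 9 and in 37.4% of windows, GGGCGG (GC box) for 5 and in 35.7%, and TATAAA for Ppp1r3a and in 13.6%. The MEF2 motif was found for Ppp1r3a and in 3.19% of windows. The full cyclic AMP element TGACGTCA was found for 0 of 9 and in 1.79%. A match is a description of letters, not evidence of a bound factor.

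The breakdown enzyme and its kinase differed by similar amounts. Pygm (ENSMUSG00000032648.14, chromosome 19, 6384399 to 6398459), the gene lost in McArdle disease, had a scaled fold of 0.66 in replicate 2 over replicate 1 (95% counting interval 0.66 to 0.67) from 266538 and 354232 counts. Phka1 (chromosome X, 102513975 to 102644246) had 209 TPM in replicate 2 and 289 TPM in replicate 1, a fold of 0.69 (0.68 to 0.70). Phkb (chromosome 8, 85840959 to 86061376) had 162 and 201 TPM, a fold of 0.75 (0.73 to 0.76). Phkg1 (chromosome 5, 129863421 to 129898549) had 125 and 167 TPM, a fold of 0.69 (0.67 to 0.71). All 4 lay below 1 and none reached 2-fold, although Pygm passed where the fold threshold was set at 1.5, a rule that called 11.5% of all genes tested. Phkg1 overlaps Sumf2 on the opposite strand over 630 exonic bases, and Sumf2 had 161 and 125 counts.

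The shares of the 3 kinase subunits differed little between the libraries. Phka1 made up 42.1% of their summed TPM in replicate 2 and 44.0% in replicate 1, Phkb 32.7% and 30.6%, and Phkg1 25.2% and 25.4%. The ratio of Phka1 to Phkg1 counts in replicate 2 was 0.995 times that in replicate 1 (95% counting interval 0.96 to 1.03). That of Phka1 to Phkb was 0.92 times (0.90 to 0.95) and that of Phkb to Phkg1 1.08 times (1.04 to 1.12), and neither interval includes 1. These levels include short or non-coding transcripts, which weigh on Phkb most. Its full-length coding transcript Phkb-201 had 68.4 TPM in replicate 2 and 89.2 TPM in replicate 1, while the 618-base coding fragment Phkb-206 had 56.3 and 64.1 TPM from only 1034 and 1075 counts. The full-length Phkg1-201 had 98.1 and 137 TPM. Of the genes for calmodulin, their partner subunit, Calm2 had 88.0 TPM in replicate 2 and 98.3 TPM in replicate 1 (log2 ratio -0.25), and Calm3 had 147 and 219 TPM (log2 ratio -0.66).

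Ratios between enzymes within a library differed between the libraries, in both directions. Gys1 stood at 0.045 of the Pygm level in replicate 2 and 0.022 in replicate 1 (0.033 ± 0.017, SD, n = 2), and the same ratio of counts was 2.08-fold higher in replicate 2 (95% counting interval 2.03 to 2.13). Gbe1 stood at 0.22 of Gys1 in replicate 2 and 0.11 in replicate 1, a 1.91-fold difference in counts (1.77 to 2.06). The primer Gyg went the other way against Gys1, at 1.46 in replicate 2 and 1.89 in replicate 1 (counts, 0.77-fold, 0.74 to 0.80). With 1 library on each side, these intervals hold no replicate error.

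**Figure D3:**
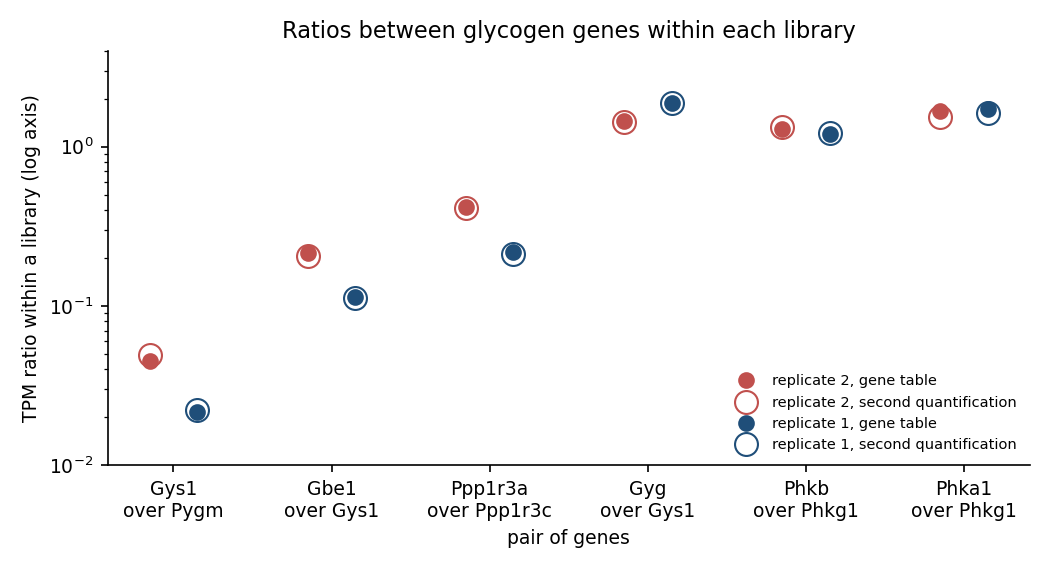
TPM ratios of 6 pairs of glycogen genes within each library (log axis), for replicate 2 (red, left) and replicate 1 (blue, right), from the gene table (filled) and the second quantification (open). Gys1 over Pygm lies at 0.045 and 0.022, while the kinase subunit ratios differ least.

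Phka1 was made as transcripts that differ by 1 coding exon, and their balance differed between the libraries. In rabbit, fast muscle carries the long alpha subunit and slow muscle and heart carry mainly a shorter alpha prime form, which lacks an internal segment. In mouse, Phka1-202 (3723 coding bases) contains exon 19 of 33 at chrX:102557096-102557272 on the minus strand (mm10), and Phka1-201 (3546 coding bases) lacks it and is otherwise identical. The exon has 177 bases, which is 59 codons with no frame shift. Its bases are in capitals from the GENCODE M21 transcripts, because its share is what differed between the libraries, with 20 bases of the neighbouring exons on each side in lower case, followed by the junction that forms without it.
Phka1-202: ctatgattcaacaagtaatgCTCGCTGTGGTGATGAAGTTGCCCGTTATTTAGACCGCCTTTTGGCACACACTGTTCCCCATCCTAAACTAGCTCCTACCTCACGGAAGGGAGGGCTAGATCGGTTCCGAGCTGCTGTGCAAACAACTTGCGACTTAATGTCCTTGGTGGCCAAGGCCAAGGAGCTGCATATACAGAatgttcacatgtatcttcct
Phka1-201: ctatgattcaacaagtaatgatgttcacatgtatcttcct

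The transcript without the exon was higher in replicate 2 and the one with it lower. Phka1-201 had 67.9 TPM in replicate 2 and 49.8 TPM in replicate 1, from 13718 and 9180 expected counts. Phka1-202 had 79.9 and 156 TPM, from 16621 and 29660 expected counts. Of both together, Phka1-201 therefore took 46.0% in replicate 2 and 24.2% in replicate 1, a share that the total level of Phka1 does not affect. The second transcript table gave 42.0% and 22.0%. Counting all 6 transcripts that contain the exon, its share of Phka1 TPM was 67.5% in replicate 2 and 82.8% in replicate 1 in the first table (75.1 ± 10.8%, SD, n = 2), and 70.4% and 84.9% in the second. Among 3967 genes with several transcripts and at least 10 TPM in each library, the leading transcript's share moved by a median of 2.85 percentage points, and that of Phka1 by 15.7, which 3.53% of those genes equalled or passed. Myh7, the slow myosin heavy chain, had 312 TPM in replicate 2 and 29.4 TPM in replicate 1, and its link to the exon was not tested. This exon was singled out after its values were seen, and with 1 group no test of the shift was possible.

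**Figure D4:**
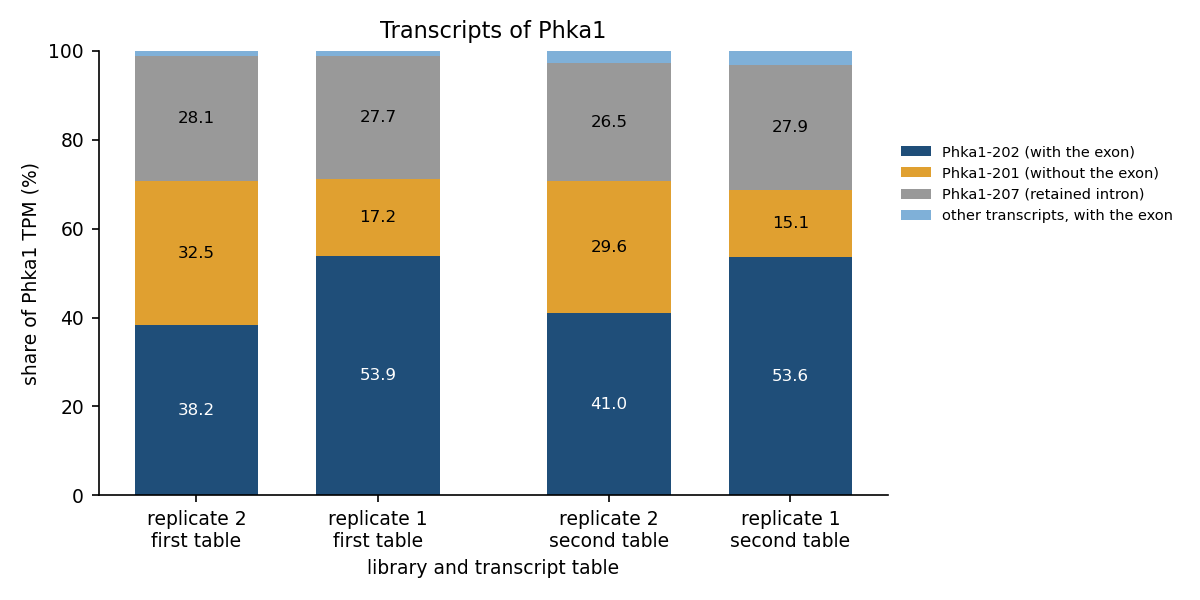
Share of Phka1 TPM (%) held by each transcript, as stacked bars for replicate 2 and replicate 1 in the first and the second transcript table. Phka1-201, without the exon, takes 32.5% in replicate 2 and 17.2% in replicate 1 in the first table, and the retained-intron transcript Phka1-207 takes a near-equal share in each bar.

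The remaining transcripts gave the same leader in both libraries and both tables for 5 of the 7 genes with several transcripts. In the first table Pygm-201 held 90.1% of Pygm TPM in replicate 2 and 89.8% in replicate 1. The short retained-intron transcript Pygm-203, which covers the last exons of the gene, held 9.43% and 9.84%. In the second table the libraries differed more, with 7.75% in replicate 2 and 13.3% in replicate 1 for Pygm-203. Gys1-201 held 97.0% and 97.6% in the first table. Phka1-207, which also ends in a retained intron, held 28.1% and 27.7% there. Gyg was the clearest case of dependence on the quantification. Gyg-203 held 98.2% and 97.6% in the first table, but in the second table Gyg-201, whose first exon starts further upstream, led with 186 TPM in replicate 2 and 163 TPM in replicate 1. Ppp1r3a and Ppp1r3c have 1 annotated transcript each.

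Other genes of the pathway, listed with earlier results of these data known, did not reach the threshold. Of 34 listed, 32 were tested, and the exact binomial rule called 0 in either direction. Of the 32, 21 had an unadjusted p below 0.05, beside 42.0% of all genes tested, and edgeR's exact test called 0, with 1 at an unadjusted p below 0.05. Their median log2 ratio was -0.089, with 11 above 0 and 21 below. Ugp2, which makes the UDP-glucose that synthase uses, had 246 TPM in replicate 2 and 145 TPM in replicate 1 (1.64-fold). Pgm1, the phosphoglucomutase that links glycogen to glycolysis, had 419 and 672 TPM (fold 0.60). Ugp2 thus lay above 0, as did Gyg, Gys1 and Gbe1. Pgm1 lay below 0, as did Pygm, the kinase subunits, Ppp1r3a and Ppp1r3c. Pgm2 had 0.98 and 0.64 TPM.

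Regulators and glucose entry genes lay on both sides. Slc2a4, the insulin-responsive glucose transporter, had 179 TPM in replicate 2 and 163 TPM in replicate 1, and Hk2, the muscle hexokinase, 129 and 80.3 TPM (1.54-fold). Prkag3, the gamma subunit of AMP-activated kinase typical of fast muscle, had 43.0 and 80.7 TPM, a fold of 0.51 (95% counting interval 0.49 to 0.53), just under the threshold, and was named after its value was seen. Among the phosphatase genes, the catalytic subunit Ppp1cb had 213 and 191 TPM and Ppp1ca 84.4 and 89.3 TPM. The lysosomal glucosidase Gaa had 73.4 and 76.3 TPM, and laforin (Epm2a) 41.3 and 39.4 TPM.

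Fibre-type markers differed between the same libraries. All 14 of 14 slow-type sarcomere genes were called higher in replicate 2, with log2 ratios from 2.09 to 4.82, and none was at 0. Of 14 fast-type sarcomere genes, 2 were called higher (Myh1 and Myh2) and 0 lower, and the summed level was 85902 TPM in replicate 2 and 112350 TPM in replicate 1, with 12 log2 ratios below 0. The fast-type list's median log2 ratio was -0.54, beside -0.42 for the 9 glycogen genes and 3.35 for the slow-type list. In other cell types, the summed level was 66.0 and 46.1 TPM for 8 endothelial markers (2 called higher), 164 and 114 TPM for 8 smooth muscle and pericyte markers (2 higher), and 42.8 and 29.4 TPM for 6 Schwann cell markers (2 higher). It was 51.8 and 62.7 TPM for 6 white adipocyte markers (2 higher, 2 lower). None was called among 6 fibroblast (251 and 262 TPM), 6 macrophage (33.9 and 30.4 TPM), 6 tendon (102 and 70.4 TPM) and 5 erythrocyte genes (483 and 371 TPM). The part of these markers in the differences of Gbe1, Ppp1r3c and the Phka1 exon was not tested. In whole muscle, fewer cells of a type and less RNA per cell cannot be told apart.

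**Figure D5:**
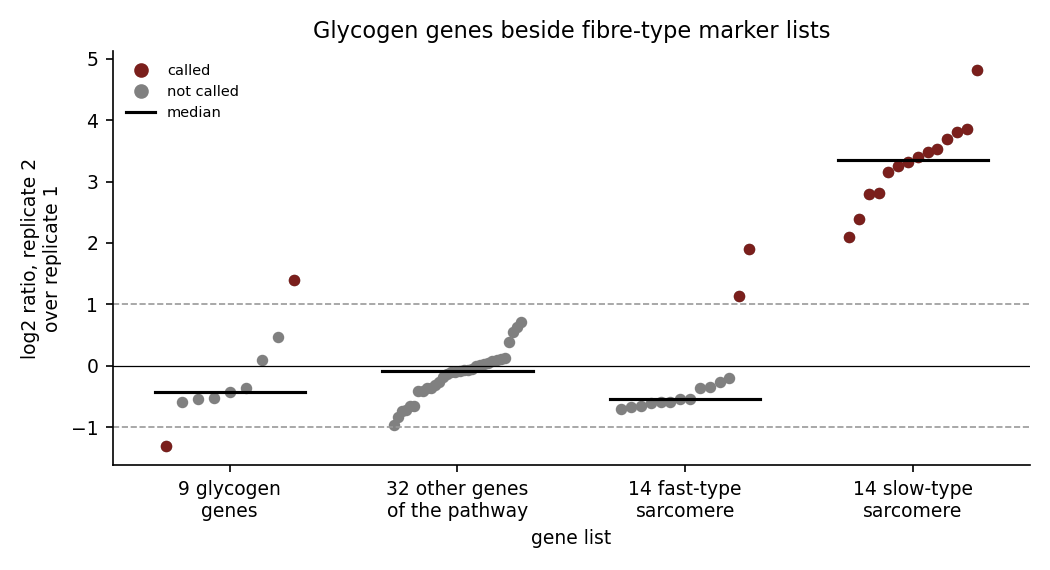
Log2 ratio of TMM-scaled counts, replicate 2 over replicate 1 (vertical axis), for the 9 glycogen genes, 32 other genes of the pathway, 14 fast-type and 14 slow-type sarcomere genes, each point a gene and each line the list's median. The slow-type genes lie above the 2-fold line, and 2 of the 9 glycogen genes, Gbe1 and Ppp1r3c, lie past it.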

How the data were processed

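The build was mm10 and the annotation GENCODE M21, per the labels and the list deposited with each sample. Aligner and quantifier are not given in the sources consulted. Deposited expected counts (gene table, first transcript table) and estimated counts (second transcript table) are named so per the file headers, and need not be whole. Deposited TPM stands beside an effective length per the file headers and sums to a fixed total over all entries. Deposited FPKM served only as an alternative for ratios. The deposited percent of isoform use served only for the leading transcripts over all genes. A deposited posterior standard deviation of counts, per the file headers and treated as a score, was at most 0.03 for each of the 9 genes.

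Expected counts were rounded. The 55536 annotated genes were kept, and 26249 other entries, with 2 counts in each library, and 96 spike-ins were left out of tests. Testing needed a mean count of 10 or more and was done with TMM library sizes (edgeR 4.0.16), and folds between libraries use TMM-scaled counts, with 0.5 added for log2 values. No model with replicate error can be fitted to 1 group, so edgeR's exact test, whose spread (a biological coefficient of variation of 22.7%) comes from the same difference it tests, was an alternative only. DESeq2 1.42.0 gave alternative size factors. The exact binomial test was checked on simulated counts that held counting error only. That check therefore does not cover spread between libraries. The genes, lists and tests were chosen with earlier results of these data known. All 9 genes are named, with the isozymes and partners of the fixed lists (some genes are not reported here), and for the other lists each called gene and the 2 most abundant.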

Additional observations from a re-analysis of the deposited data

How the results depend on the processing

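Gbe1 and Ppp1r3c were the genes called with DESeq2 size factors, total counts, spike-in totals, no filter, a mean count of at least 100 and the second quantification. With a fold threshold of 1.5, 3 genes were called, Pygm being added. With edgeR's exact test 0 of 9 were called, while 2 had an unadjusted p below 0.05. None of the 9 changed sign under another scaling or the second quantification. Over all genes 906 were called, against 273 with edgeR's test, 367 at a mean count of at least 100 and 1718 at 1.5-fold. The median log2 TPM ratio of the 9 genes was -0.31, between -0.36 and -0.31 without each gene in turn. It was -0.42 with TMM-scaled counts, -0.14 with spike-in scaling and -0.14 as a mean. The summed level averaged 5082 TPM, and leaving out either library gave 4188 to 5976 TPM. It was 11299 TPM when rescaled over nuclear protein-coding genes and 6503 TPM in the second quantification. The Gys1 to Pygm ratio in replicate 2 was 0.062 in expected counts, which are not divided by length. No paired analysis was possible because the series holds 1 group. With 2 libraries, counting error is small and the spread between libraries rests on a single difference.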
